A study of Mus musculus with 24 samples.

Results

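The comparison described here is that of microglia from female mice with and without a conditional deletion of *Kdm6a*, taken from the spinal cord during experimental autoimmune encephalomyelitis (EAE), an immune-mediated demyelinating disease used as a model of multiple sclerosis. It rests on the 12 female libraries of a series of 24, 6 labelled wildtype and 6 labelled *Kdm6a* cKO, chosen as the count columns whose names start with F_WT_ and F_cKO_. The other 12 libraries are the same groups in males and are used for the shared estimate of spread and for a closing comparison. All 24 carried the treatment label EAE, so no healthy animal entered. The design text gives the animals of both genotypes as *Tmem119*-Cre:RiboTag mice. *Tmem119*-Cre expresses the recombinase in microglia, and RiboTag marks a ribosomal protein with an epitope in the cells that express Cre. The sources used here do not say whether RNA was recovered through that tag, how old the animals were, which exons were floxed or which alleles the wildtype animals carried. The labels do not tie each library to an animal of its own, so p-values measure the spread between these libraries, which may be technical.

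*Kdm6a*, also called *Utx*, encodes an X-linked demethylase of histone tails that also works as a scaffold of enhancer-activating complexes, and it is expressed from both X chromosomes in females. Microglia are the resident macrophages of the central nervous system. In EAE they meet infiltrating immune cells, respond to interferons and other cytokines, take up myelin debris, and release chemokines, growth factors and proteases.

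Total counts of the 24 libraries ranged from 27110133 to 40554736, and 16535 genes had enough counts to be tested. Levels are given as CPM, counts as a share of the library's total on a common scale, not adjusted for gene length, and changes as log2 of cKO over wildtype with a standard error (SE). A gene was called when edgeR's quasi-likelihood test gave an adjusted p under 0.05 over all 16535 genes. Some female wildtype libraries stood apart. *Ddx3y*, a gene of the Y chromosome, had 18 counts in replicate 2 and 40 in replicate 3. *Tchh*, which encodes trichohyalin of hair follicles, had 3904 and 7365 counts there, against 52 to 588 in the other female libraries. Both cKO replicates 2 and 3 held 2 counts of *Ddx3y*, and the other female libraries 0. Of other Y-linked genes, *Eif2s3y* had 6 and 22 counts in wildtype replicates 2 and 3 and 2 in cKO replicate 1. *Kdm5d* had 2, 2 and 4 in wildtype replicates 1, 2 and 3 and 4 in cKO replicate 1, and *Uty* 1, 1 and 8 in those wildtype replicates. Wildtype replicate 5 was the library on which the changes below depended most. Wildtype replicates 2, 3 and 5 and male cKO replicate 3, which held reads of the female transcript *Xist*, are called the doubted libraries, and counts are also given without them. Several libraries of 1 genotype carry the same number in their titles, no number is shared between the female genotypes, and no label says what the number marks.

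The label microglia was checked against markers. The sum of 22 microglia marker genes was 44209, 51132 and 64105 CPM (lowest, median and highest of 6 libraries) in wildtype and 41533, 47297 and 52180 CPM in cKO, with overlapping groups (2-sided exact permutation p = 0.12, n = 6 each). Of the 22, *Siglech* rose and *Fcrls*, *Tmem119*, *Crybb1* and *Aif1* fell, with *Tmem119* at 272 to 433 CPM in wildtype and 189.7 to 291 CPM in cKO (log2 change -0.77, SE 0.15, adjusted p = 9.1e-04). Among the 13 marker sums compared, that of 14 dendritic cell genes had the smallest p: 425 to 671 CPM in wildtype and 1033 to 1289 in cKO (exact permutation p = 0.0022, n = 6 each, adjusted p = 0.028 over the 13 sums). That list holds *Fscn1*, *Ccl22* and *Siglech*, which rose, and *Xcr1* and *Batf3*, which fell. Most of the rise in the sum was that of *Fscn1*, at 119.9, 186 and 325 CPM in wildtype and 654, 716 and 811 CPM in cKO. The median log2 change of the 11 tested members was 0.05, and *Siglech* is also among the microglia markers. The sum of 18 monocyte-derived cell markers was lower, 2231, 4033 and 5008 CPM in wildtype and 1488, 2425 and 2996 CPM in cKO (exact permutation p = 0.026, n = 6 each, adjusted p = 0.11), with 2 of 16 tested members higher and 7 lower. Most of that sum was *Gpnmb*, at 1925, 3383 and 4709.7 CPM in wildtype and 872, 1504 and 2045 CPM in cKO. *Fn1*, another member, rose. *Ly6c2*, a member that marks inflammatory monocytes, was low, at 0.0527 to 1.71 CPM in wildtype and 0 to 0.131 CPM in cKO. The part of infiltrating cells in the changes below was not tested beyond a fit with a covariate made from the monocyte-derived, T and NK, B and neutrophil markers. In bulk libraries fewer cells of a type and less RNA per cell cannot be told apart.

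In all, 1279 genes were called, 7.74% of those tested, with 549 higher in cKO (3.32%) and 730 lower (4.41%). The 6 wildtype and 6 cKO libraries did not overlap for 675 of the 1279 called genes and for 737 (4.46%) of all tested genes. Genes named below were picked by p, by size or after their values were seen, so a lack of overlap describes them and is no further test. *Kdm6a* itself was at 2.2, 4.46 and 6.09 CPM in wildtype libraries and 1.56, 2.56 and 3.48 CPM in cKO libraries, which overlap (log2 change -0.85, SE 0.25, adjusted p = 0.031). Its call was lost without wildtype replicate 2 or 3 (-0.78 and -0.74), without cKO replicate 2, 3, 5 or 6 (-0.79, -0.86, -0.84 and -0.74) and on removal of the doubted libraries (-0.81, adjusted p = 0.092). The lowest wildtype value was that of replicate 5, and the change was -0.99 without it. The sources used here do not say where in the transcript the counted reads lay.

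The X chromosome around *Kdm6a* (chromosome X, 18162575 to 18279936 in mm10) was examined next. Of 58 other tested genes within 10 Mb, 10 were called (17.2%), 8 higher and 2 lower, against 40 of 565 (7.08%) on the rest of the chromosome. Without the doubted libraries 5 of the 58 were called, beside 5.13% of all tested genes. Among the called neighbours not named here were genes called in only 1, 6, 7 and 9 of the 12 fits that left out 1 female library. *Tspan7*, a tetraspanin gene 7.68 Mb away by start, was at 276, 328 and 402 CPM in wildtype and 82.5, 90.0 and 98.5 CPM in cKO (log2 change -1.92, SE 0.10, adjusted p = 1.5e-12). Every cKO library was below every wildtype library, and the change stayed between -1.97 and -1.86 when any female library was left out. *Maoa* and *Maob*, the neighbouring genes of the monoamine oxidases, lie 1.54 and 1.45 Mb from *Kdm6a* and rose by 1.01 (SE 0.21, adjusted p = 0.0023) and 1.15 (SE 0.24, adjusted p = 0.0026). *Maoa* stood at 3.50 to 8.59 CPM in wildtype and 10.3 to 14.5 in cKO, and *Maob* at 0.973 to 1.85 and 2.38 to 4.0, without overlap. *Cask*, a scaffold kinase of cell junctions, rose by 1.01 (SE 0.22, adjusted p = 0.0027), from 6.07 to 20.4 CPM in wildtype to 23.1 to 38.4 CPM in cKO. *Cfp*, which encodes properdin, the stabiliser of the alternative complement pathway, was the other lower gene (-2.37, SE 0.58, adjusted p = 0.0093) and did not pass without the doubted libraries (-1.53, adjusted p = 0.21). Over the genome, 234 windows of 10 Mb held 20 or more tested genes, with a median of 7.09% called. The window with the highest share was on chromosome 1 at 80 to 90 Mb (16 of 68 genes, 23.5%), where 9 of the called genes are *Ugt1a* genes that share exons and so are not separate measurements.

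The median log2 change was 0.82 among higher genes (quartiles 0.60 and 1.27) and -1.12 among lower genes (quartiles -1.80 and -0.72), while the median of all tested genes was -0.02. At least 2-fold changes were reached by 224 higher and 415 lower genes, at least 4-fold by 40 and 142, and at least 8-fold by 11 and 45. Another 252 called genes changed by less than 1.5-fold. The higher genes summed to 43629 CPM as a mean of wildtype libraries (35242 to 50601) and to 82262 CPM in cKO libraries (67798 to 90746). Lower genes summed to 50439 CPM in wildtype (39248 to 71676) and 27411 CPM in cKO (24882 to 28964). These sums describe genes picked by the same libraries and are no test. The wildtype libraries spread more widely than the cKO libraries in the sum of lower genes.

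**Figure D1:**
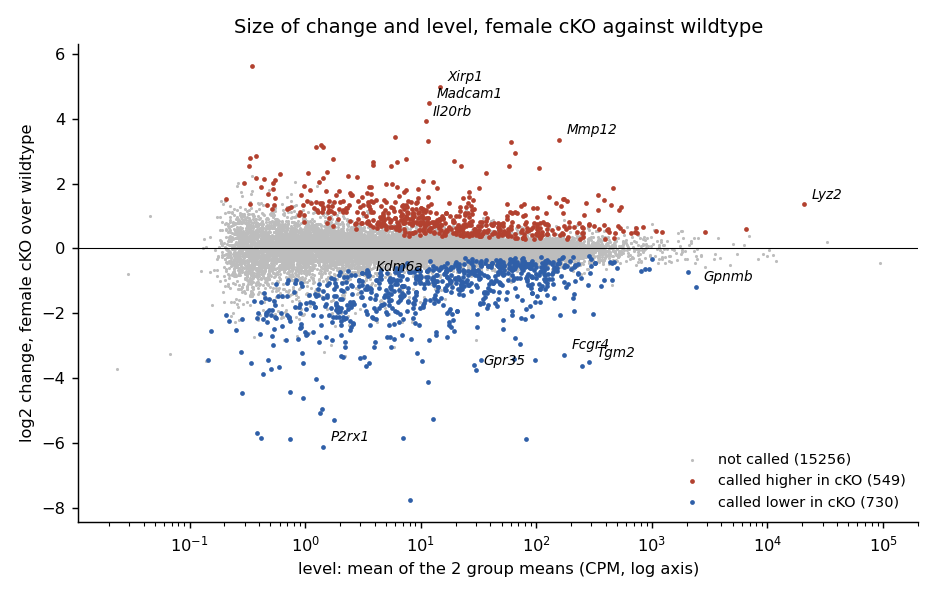
Each point is 1 of 16535 tested genes, with its level on a log axis (mean of the wildtype and cKO group means, in CPM) and its log2 change in female cKO over wildtype. The 549 genes called higher lie above the line at 0 and the 730 called lower below it, with the larger changes among the lower genes.

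By mean level, the share called was 3.91% of 2529 genes under 1 CPM, 8.33% of 5424 genes at 1 to 10 CPM, 7.81% of 6968 at 10 to 100, 11.5% of 1533 at 100 to 1000 and 9.88% of 81 genes at 1000 CPM or more. The median log2 change of called genes fell with level, from 1.66 (higher) and -2.16 (lower) under 1 CPM to 0.55 and -0.74 at 1000 CPM or more. Genes with few counts need a larger change to be called, so this fall is no result of its own. Over all tested genes the median size of change was 1.29, 1.17, 1.11, 1.12 and 1.18-fold from the lowest to the highest of these levels. Protein-coding genes made up 13908 of the tested genes and 8.4% of them were called, against 5.38% of 279 lincRNA genes, 5.44% of 496 antisense genes and 2.79% of 1077 processed pseudogenes.

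*Lyz2*, *Fscn1* and *Ccl6* were among the 5 higher genes with the largest difference of mean CPM. *Lyz2*, the macrophage lysozyme gene, stood at 7422, 11575 and 15714 CPM in wildtype and 20674, 31722 and 34730.1 CPM in cKO (log2 change 1.37, SE 0.19, adjusted p = 2.2e-05), and the groups did not overlap. Its near-identical neighbour *Lyz1* was at 5.88 to 18.8 CPM in wildtype and 71.7 to 131 in cKO (3.28, SE 0.28), and reads of the 2 genes cannot be told apart with certainty. *Fscn1*, which encodes the actin-bundling protein fascin, rose from 119.9, 186 and 325 CPM to 654, 716 and 811 CPM (1.86, SE 0.21, adjusted p = 1.3e-06), again without overlap. The 5 largest differences downward were in *Gpnmb*, *Ly6e*, *Tgm2*, *Gpx3* and *Fcer1g*. *Tgm2*, the tissue transglutaminase gene, was at 226, 353 and 1487 CPM in wildtype and 35.9, 46 and 58.0 CPM in cKO (-3.52, SE 0.39, adjusted p = 8.2e-07), where the highest value was that of wildtype replicate 5, and the change was -2.86 without it. *Gpx3*, a secreted glutathione peroxidase, fell from 145, 404 and 1110.3 CPM to 20.1, 39.8 and 48.7 CPM (-3.63, SE 0.45, adjusted p = 3.9e-06). *Gpnmb*, a transmembrane glycoprotein gene of phagocytes that is also in the monocyte-derived marker list, fell by 1.18 (SE 0.28, adjusted p = 0.0068) with overlapping groups, and by 1.56 without the doubted libraries.

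Some genes were near absent in 1 genotype. Among called genes, 20 had a mean under 1 CPM in wildtype and at least 2 CPM in cKO, 19 of them protein coding, and 13 of the 20 were called without the doubted libraries. *Xirp1*, which encodes an actin-binding repeat protein of striated muscle junctions, went from 0.0535, 0.461 and 3.37 CPM to 20.3, 27.9 and 39.4 CPM (log2 change 4.99, SE 0.59, adjusted p = 1.7e-06), with every cKO library above every wildtype library. *Fst*, which encodes the activin-binding protein follistatin, went from 0.120, 0.181 and 0.63 CPM to 1.90, 2.59 and 3.09 CPM (3.14, SE 0.43, adjusted p = 1.5e-05). *Stap1*, the gene of a signalling adaptor and chosen for mention after its values were seen, stood at 0 to 0.629 CPM in wildtype and 0.959 to 3.41 in cKO (3.13, SE 0.58). In the reverse direction 60 genes had a mean under 1 CPM in cKO and at least 2 CPM in wildtype, 52 of them protein coding, and 29 were called without the doubted libraries. *P2rx1*, an ATP-gated cation channel, went from 0.790, 2.62 and 6.74 CPM to 0, 0 and 0.177 CPM (-6.12, SE 0.66, adjusted p = 4.8e-07, and -7.47 without cKO replicate 6). *Il12rb1*, the subunit shared by the receptors of interleukins 12 and 23, went from 3.85, 6.57 and 53.1 CPM to 0.0657, 0.193 and 0.552 CPM (-5.86, SE 0.75, adjusted p = 5.5e-06). Wildtype replicate 5 held its highest value, and the change was -4.66 without that library, and the other wildtype libraries also stood above all cKO libraries. Other genes owed their call to 1 library. *Ighg1*, an immunoglobulin heavy chain gene, had 2499 counts in wildtype replicate 1, 162 in replicate 4 and at most 6 in the other wildtype libraries, with 13 in 1 cKO library and 0 in the rest. The light chain gene *Igkc*, named after its values were seen, had 3470 counts in wildtype replicate 1, 8 to 492 in the other wildtype libraries and 2 to 67 in cKO libraries. Without wildtype replicate 1 neither passed (-3.80 and -2.74, against -7.78 and -5.26 with it). *Nos2*, the inducible nitric oxide synthase gene, was at 14.3 CPM in wildtype replicate 5 and did not pass without it (-2.27, against -4.97).

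**Figure D2:**
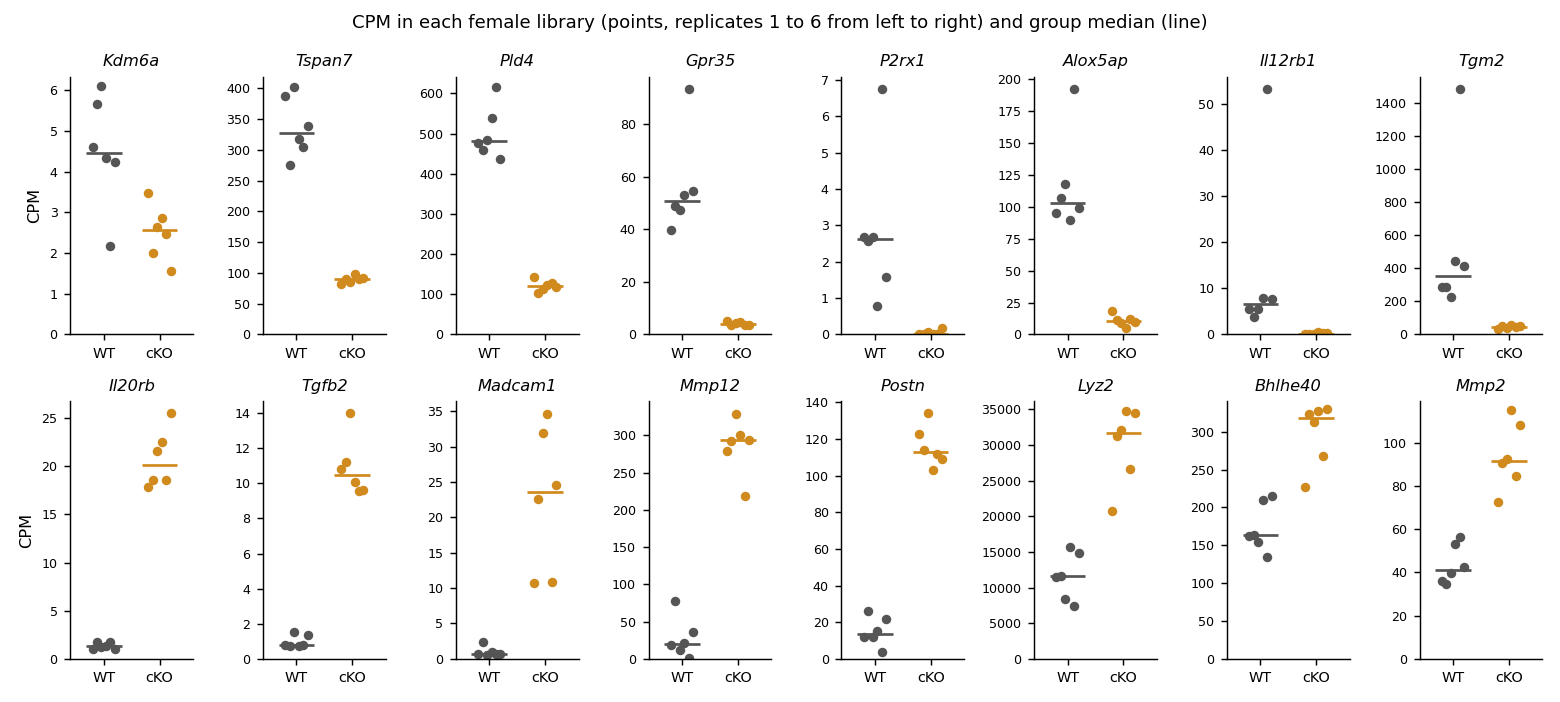
Points are CPM in the 6 female wildtype (grey) and 6 female cKO (orange) libraries, replicates 1 to 6 from left to right, and lines are group medians, with a linear axis from 0 for each gene. *Kdm6a* overlaps between the groups and the other 15 genes do not. Wildtype replicate 5 is the highest wildtype library for several genes, among them *P2rx1*, *Il12rb1*, *Tgm2*, *Gpr35*, *Alox5ap* and *Pld4*. It is the lowest for others, among them *Kdm6a*, *Mmp12* and *Postn*.

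Functions were described with 22 lists of genes for regulators, receptors, secreted products and signalling, matched by symbol, which held 4452 tested genes, of which 530 were called (7.74% of all genes were called). The lists hold protein-coding genes alone, of which 8.4% were called. The lists were written with earlier results of these libraries known, so a count is a description beside the background and not a test.

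Of 476 transcription factor genes tested, 22 rose and 20 fell (8.82%), with a median log2 change of 0.03 (14 and 12 without the doubted libraries, 16 to 26 and 14 to 29 with 1 library left out). *Sox12* (1.0, SE 0.14), *Bhlhe40* (0.78, SE 0.15), *Sox13* (0.92, SE 0.18) and *Srebf2* (0.61, SE 0.13) had the smallest p among higher genes. *Bhlhe40*, a basic helix-loop-helix repressor of activated myeloid and T cells, stood at 135, 163 and 215 CPM in wildtype and 227, 318 and 330.3 CPM in cKO (adjusted p = 0.001, and 0.054 without the doubted libraries). *Srebf2*, the activator of cholesterol synthesis genes, was at 37.0 to 64.1 CPM in wildtype and 68.2 to 81.5 in cKO. *E2f2*, a cell cycle factor, fell from 18.2, 27 and 65.8 CPM to 5.34, 8.65 and 10.8 CPM (-1.92, SE 0.24, adjusted p = 2.9e-06). Both *Etv4* (-2.03, SE 0.29) and *Mxd1* (-0.49, SE 0.10) fell, as did *Nfatc2* (-0.57, SE 0.12), a factor controlled by calcium and calcineurin. The wildtype and cKO libraries of *E2f2*, *Etv4* and *Mxd1* did not overlap.

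Within that list, and chosen for mention after their values were seen, were genes of the immediate early kind, which many stimuli, tissue dissociation among them, switch on within minutes. *Egr1* rose by 0.74 (SE 0.17, adjusted p = 0.0064), *Egr2* by 1.12 (SE 0.28, adjusted p = 0.01) and *Fosl1* by 1.20 (SE 0.29, adjusted p = 0.0078), called in all 12 fits with 1 female library left out. *Egr2* was at 12.6, 45.8 and 55.6 CPM in wildtype and 71.0, 90.6 and 113 CPM in cKO, without overlap. *Jun*, of the same kind, fell by 0.47 (SE 0.13, adjusted p = 0.024), and its call was lost without wildtype replicate 3 or 6 or cKO replicate 1, 2 or 3 (-0.45, -0.43, -0.46, -0.44 and -0.44). Also named after their values were seen, the interferon-related factors *Irf7* (-1.32, SE 0.32, and -0.94 without wildtype replicate 5) and *Stat2* (-0.91, SE 0.22) fell. Without the doubted libraries the adjusted p was 0.1 for *Fosl1* and 0.052 for *Stat2*. With the covariate for infiltrating cell markers the adjusted p of these 5 genes was 0.48, 0.81, 0.14, 0.79 and 0.91 for *Egr1*, *Egr2*, *Fosl1*, *Irf7* and *Stat2*.

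Of 194 histone-modifying and chromatin genes 1 rose and 7 fell (4.12%, beside 7.74% of all genes, median -0.04), and of 349 zinc finger genes with *Zfp* or *Zkscan* names 6 rose and 2 fell (2.29%). The higher chromatin gene was *Arid1b*, a subunit of the BAF remodelling complex, with overlapping groups of 23.8 to 46 and 39.7 to 53.8 CPM (log2 change 0.45, SE 0.12, adjusted p = 0.014). Among the lower genes were *Kdm6a*, 2 further demethylase genes, *Kdm7a* and *Kdm4a*, and 3 members of 1 interferon-induced family, *Phf11a*, *Phf11b* and *Phf11d*, whose reads may be shared. *Kdm4a* (-0.34, SE 0.10, adjusted p = 0.046) was called in 3 of the 12 fits that leave out 1 female library, those without wildtype replicate 1 or 3 or cKO replicate 6 (-0.36, -0.37 and -0.37), and stood at -0.34 to -0.30 in the others. *Kdm7a* (-0.56, SE 0.17, adjusted p = 0.045) was called in 5, those without wildtype replicate 1, 4 or 5 or cKO replicate 1 or 2, and stood at -0.57 to -0.43 in the others. Both genes, named after their values were seen, missed the threshold without the doubted libraries (adjusted p = 0.087 and 0.31). *Zfp827*, a zinc finger gene, rose from 1.66, 2.97 and 5.37 CPM to 9.59, 11.4 and 13.4 CPM (1.80, SE 0.23, adjusted p = 3.9e-06), and *Zfp618* from 0.802 to 1.61 to 2.61 to 5.78 CPM (1.72, SE 0.27), both without overlap.

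Innate and immunoglobulin-like immune receptors held the highest share of the 22 lists, with 13 of 153 tested members higher and 43 lower (36.6%, median -0.39, and 11 and 39 of 156 without the doubted libraries). With 1 library left out the counts were 11 to 15 and 38 to 49, and with the infiltrating-cell covariate 4 and 17. Some of the lower members are also in the list of interferon-stimulated genes counted below. Some members, such as the ligand gene *Tnfsf9*, do not encode receptors. Inhibitory receptors were among both the lower and the higher called members, and the examples given here are lower ones. *Siglece*, an inhibitory sialic acid receptor, was at 21.4, 25.3 and 37.8 CPM in wildtype and 5.07, 5.92 and 11.1 CPM in cKO (-1.98, SE 0.19, adjusted p = 5.2e-08). *Cd300lf*, which binds ceramide and phosphatidylserine, fell from 49.8, 72.8 and 179 CPM to 8.82, 16.6 and 19.2 CPM (-2.49, SE 0.28, adjusted p = 1.0e-06). *Milr1*, an inhibitory receptor first described in mast cells, fell from 46.7 to 65.3 CPM to 22.6 to 30.7 CPM (-1.0, SE 0.12), and *Treml2* from 82.7 to 164 CPM to 27.4 to 41.2 CPM (-1.60, SE 0.16). None of these 4 overlapped between genotypes, and all 4 also passed with the covariate (adjusted p = 9.1e-06, 0.0038, 0.0064 and 7.9e-04). *Siglec1*, a sialic acid receptor induced by interferon and named after its values were seen, fell by 2.21 (SE 0.26). *Fcgr4*, an activating Fc receptor also named after its values were seen, was at 127, 202 and 951 CPM in wildtype, the highest in replicate 5, and 24, 32.3 and 46.9 CPM in cKO (-3.28, -2.55 without replicate 5, and -1.32 with the covariate, adjusted p = 0.18).

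Among the higher immune receptors, *Slamf7*, a self-binding receptor of leukocytes, was at 18.7, 32.0 and 42.6 CPM in wildtype and 57.4, 81.7 and 98.8 CPM in cKO (1.37, SE 0.19, adjusted p = 1.6e-05). *Tnfsf9*, the ligand of the costimulatory receptor 4-1BB, rose by 1.35 (SE 0.25), from 1.17 to 2.67 CPM to 3.76 to 7.28 CPM. *Cd1d1*, which presents lipid antigens, rose by 1.49 (SE 0.28), from 1.28 to 4.27 CPM to 4.77 to 7.5 CPM. *Havcr1*, a phosphatidylserine receptor, was at 0 in most wildtype libraries and at most 0.0731 CPM, and at 0.290, 0.709 and 0.981 CPM in cKO libraries. The groups of these 4 genes did not overlap.

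**Figure D3:**
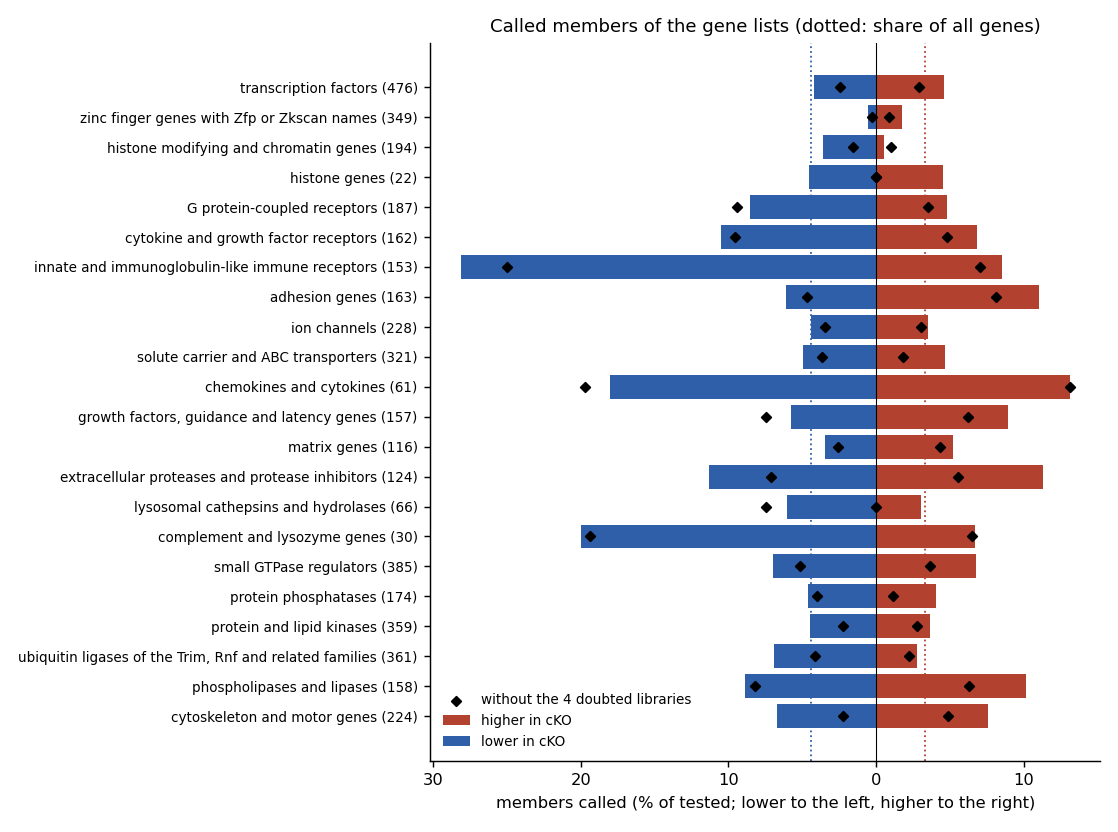
Bars give the percent of tested members of each list (number tested in brackets) called higher (right, red) or lower (left, blue) in female cKO, diamonds the same without the 4 doubted libraries, and dotted lines the share of all genes called in each direction (3.32% higher, 4.41% lower). Immune receptors, chemokines and cytokines, and complement genes extend farthest to the left, and chemokines and cytokines farthest to the right.

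G protein-coupled receptor genes gave 9 higher and 16 lower of 187 (13.4%, median 0.11, and 7 and 19 without the doubted libraries). *Gpr35*, a receptor for tryptophan metabolites, was at 39.8, 51.0 and 93.4 CPM in wildtype and 3.43, 4.05 and 4.99 CPM in cKO (-3.76, SE 0.28, adjusted p = 5.1e-10), every wildtype library above all cKO libraries. Of the purinergic receptors named, some rose and some fell. *P2ry2*, a receptor for extracellular ATP and UTP, fell from 10.4, 15.9 and 25 CPM to 3.16, 4.92 and 5.15 CPM (-1.82, SE 0.21, adjusted p = 9.8e-07), and the adenosine receptor *Adora3* from 71.4 to 103 CPM to 39.3 to 48.9 CPM (-0.91, SE 0.11). *Adora2a*, the adenosine receptor that raises cyclic AMP, rose from 1.55, 1.89 and 2.88 CPM to 5.69, 7.64 and 12.8 CPM (1.98, SE 0.26, adjusted p = 8.9e-06). *F2r*, the thrombin receptor, rose from 0.588, 1.76 and 3.12 CPM to 10.3, 12.3 and 18.7 CPM (2.75, SE 0.33, adjusted p = 2.0e-06), and *Ptgir*, the prostacyclin receptor, from 0.435 to 2.66 CPM to 3.87 to 11.5 CPM (2.59, SE 0.42). *Adgre1*, which encodes the macrophage antigen F4/80, fell by 1.15 (SE 0.14) and was lowest among wildtype libraries in replicate 5 (89.8 CPM, against 148 to 182 in the others).

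Of 162 cytokine and growth factor receptor genes, 11 rose and 17 fell (17.3%, median 0.10, and 8 and 16 without the doubted libraries). *Il20rb*, a subunit of the receptors for interleukins 19, 20 and 24, was at 1.0, 1.28 and 1.77 CPM in wildtype and 17.8, 20.1 and 25.5 CPM in cKO (3.93, SE 0.27, adjusted p = 2.5e-10). *Il27ra*, a subunit of the interleukin 27 receptor, rose from 0.924 to 1.48 CPM to 2.86 to 4.46 CPM (1.66, SE 0.22). *Flt1*, a receptor of vascular endothelial growth factor that is also an endothelial marker, rose from 27.9 to 81.7 CPM to 98.1 to 158 CPM (1.25, SE 0.23). The endothelial marker sum that contains it was 92.2 to 238 CPM in wildtype and 218 to 249.6 CPM in cKO (exact permutation p = 0.011, n = 6 each, adjusted p = 0.07), and 1 of 15 tested members rose and 2 fell. *Acvrl1*, a type I receptor of the TGF-beta family, fell from 51.8, 58.1 and 92.5 CPM to 27, 30.5 and 36.4 CPM (-1.05, SE 0.13, adjusted p = 3.7e-06). The subunit *Il2rg*, shared by receptors of interleukins 2, 4, 7, 15 and 21, fell by 1.25 (SE 0.19), and *Tnfrsf13b*, a receptor of BAFF and APRIL, by 0.64 (SE 0.10), both without overlap. The 2 chains of the interleukin 12 receptor went apart: *Il12rb1* fell, as given above, while *Il12rb2*, named after its values were seen, stood at 1.12, 4.45 and 6.95 CPM in wildtype and 9.78, 11.9 and 15.2 CPM in cKO (1.44, SE 0.31, adjusted p = 0.0026). With the covariate *Il12rb1* passed (adjusted p = 0.0051) and *Il12rb2* did not (adjusted p = 0.7).

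Of 163 adhesion genes 18 rose and 10 fell (17.2%, median 0.12, and 14 and 8 without the doubted libraries). With the covariate 7 rose and 6 fell (median 0.03). *Madcam1*, the addressin that binds an integrin of gut-homing lymphocytes, was at 0.571, 0.725 and 2.34 CPM in wildtype and 10.7, 23.6 and 34.7 CPM in cKO (4.48, SE 0.47, adjusted p = 2.7e-07). *Cspg4*, the proteoglycan NG2 known from oligodendrocyte precursors and pericytes, rose from 17.8, 35.3 and 39.2 CPM to 129, 168 and 259.9 CPM (2.47, SE 0.24, adjusted p = 9.0e-08), and it was the single member called among 17 tested oligodendrocyte and precursor markers. *Itgax*, the integrin subunit CD11c and named after its values were seen, rose from 109, 236 and 255 CPM to 399, 560.0 and 683 CPM (1.49, SE 0.25, adjusted p = 2.4e-04). *Itgal*, the alpha subunit of the leukocyte integrin LFA-1, fell from 35.7, 45.4 and 105 CPM to 2.61, 3.90 and 7.25 CPM (-3.59, SE 0.26, adjusted p = 5.1e-10). *Vcam1* fell from 46.4 to 63.3 CPM to 14.6 to 25.7 CPM (-1.38, SE 0.17). Each of these 5 genes separated the groups in full.

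Of 228 ion channel genes 8 rose and 10 fell (7.89%), and of 321 solute carrier and ABC transporter genes 15 rose and 16 fell (9.66%, and 6 and 12 without the doubted libraries). *Trpc4*, a cation channel, rose from 0.870, 3.98 and 7.05 CPM to 13.9, 16.8 and 18.9 CPM (2.09, SE 0.34, adjusted p = 1.6e-04). *Trpm2*, a channel opened by oxidative stress, fell from 27.4 to 48.8 CPM to 13.5 to 21.9 CPM (-1.06, SE 0.14), and *Itpr3*, a calcium release channel, from 4.29 to 8.05 CPM to 1.41 to 2.90 CPM (-1.56, SE 0.25). The arginine transporter *Slc7a2* rose from 14.2 to 19.4 CPM to 29.2 to 45.5 CPM (1.10, SE 0.17) and the glucose transporter *Slc2a1* from 69.8 to 83.9 CPM to 106 to 156 CPM (0.68, SE 0.12). *Slc13a3*, a carrier of dicarboxylates, fell from 9.16, 15 and 17.3 CPM to 2.45, 3.17 and 4.13 CPM (-2.14, SE 0.20, adjusted p = 4.0e-08), and *Slc2a9*, a urate carrier, from 24.9 to 33.1 CPM to 11.4 to 13.5 CPM (-1.24, SE 0.12). All 7 were free of overlap and were called in each of the 12 left-out fits.

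Secreted products moved in both directions. Of 61 chemokine and cytokine genes 8 rose and 11 fell (31.1%, median -0.09, and 8 and 12 without the doubted libraries). *Ccl22*, a ligand of the receptor CCR4, was at 1.97, 4.38 and 9.22 CPM in wildtype and 18.5, 20.5 and 22.3 CPM in cKO (2.04, SE 0.31, adjusted p = 6.2e-05). The chemokines *Ccl9* (1.45, SE 0.17), *Ccl6* (1.28, SE 0.18) and *Ccl3* (1.52, SE 0.26) rose, each without overlap, with *Ccl6* at 223, 288 and 547 CPM in wildtype and 646, 760.1 and 945 CPM in cKO. *Ebi3*, a subunit of interleukins 27 and 35, fell from 20.5, 28.7 and 35.8 CPM to 4.01, 5.55 and 9.04 CPM (-2.26, SE 0.18, adjusted p = 3.4e-09). The lymphocyte survival factor *Tnfsf13b* (BAFF) fell from 21.2 to 31.4 CPM to 7.12 to 12.2 CPM (-1.36, SE 0.16), *Tnfsf8* from 4.95 to 18.4 CPM to 3.31 to 4.76 CPM (-1.62, SE 0.25) and *Il18* from 12.5 to 22.0 CPM to 6.4 to 8.04 CPM (-1.0, SE 0.16). The interferon-induced chemokines *Cxcl9* (-2.09, SE 0.41) and *Cxcl10* (-2.03, SE 0.48), named after their values were seen, fell by less without wildtype replicate 5 (-1.58 for each), and *Cxcl10* did not pass without the doubted libraries (adjusted p = 0.11). With the covariate the change was -0.39 for *Cxcl9* (adjusted p = 0.85) and 0.05 for *Cxcl10* (adjusted p = 0.99).

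Growth factor, guidance and latency genes gave 14 higher and 9 lower of 157 (14.6%, and 10 and 12 without the doubted libraries). *Tgfb2*, a TGF-beta ligand, was at 0.711, 0.803 and 1.55 CPM in wildtype and 9.56, 10.4 and 14 CPM in cKO (3.45, SE 0.29, adjusted p = 8.5e-09), and *Ltbp3*, which holds TGF-beta in its latent form, rose from 10.8 to 19.0 CPM to 22.8 to 38.7 CPM (1.15, SE 0.19). *Hbegf*, a ligand of the EGF receptor, rose from 3.95, 4.78 and 5.41 CPM to 11.6, 14.2 and 17.5 CPM (1.57, SE 0.17, adjusted p = 5.6e-07). *Gas6*, the ligand of the receptor AXL, fell from 102, 215 and 321 CPM to 54.6, 77.6 and 84.1 CPM (-1.54, SE 0.23, adjusted p = 6.4e-05), while *Axl* itself, named after its values were seen, was at 708, 1030.3 and 1177 CPM in wildtype and 1122, 1422 and 1789 CPM in cKO (0.50, SE 0.13, adjusted p = 0.01, and 0.17 without the doubted libraries). Insulin-like growth factor binding proteins *Igfbp4* (-1.35, SE 0.22) and *Igfbp6* (-3.05, SE 0.53, and -2.40 without wildtype replicate 5) fell.

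Of 116 matrix genes 6 rose and 4 fell (8.62%). *Postn*, the matrix protein periostin and also a fibroblast marker, rose from 3.64, 13.6 and 26 CPM to 103, 113 and 134 CPM (2.94, SE 0.32, adjusted p = 5.6e-07), the single call among 13 tested fibroblast and Schwann cell markers. *Mfge8*, a bridge between phagocytes and dying cells, rose by 1.31 (SE 0.26, adjusted p = 0.0012, and 0.069 without the doubted libraries), and *Fn1*, the fibronectin gene, by 1.18 (SE 0.28) with overlapping groups. *Emilin2* fell from 7.48 to 18.8 CPM to 4.03 to 4.97 CPM (-1.58, SE 0.23).

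Extracellular proteases and their inhibitors gave 14 higher and 14 lower of 124 (22.6%, median -0.05, and 7 and 9 without the doubted libraries). *Mmp12*, the macrophage elastase and named after its values were seen, was at 1.23, 20.2 and 78.2 CPM in wildtype and 218, 294 and 329 CPM in cKO (3.36, SE 0.58, adjusted p = 3.1e-04), so the lowest cKO library stood above the highest wildtype library. With the covariate the change in *Mmp12* was 1.67 (adjusted p = 0.2). *Mmp2*, a gelatinase, rose from 34.5, 41.1 and 56.2 CPM to 72.7, 91.5 and 115 CPM (1.10, SE 0.13, adjusted p = 2.2e-06), and *Adam19* from 1.95 to 5.35 CPM to 8.37 to 10.9 CPM (1.63, SE 0.20). *Mmp14*, the membrane-bound protease that activates the MMP2 proenzyme, fell from 74.6, 108 and 129.9 CPM to 53.0, 60.1 and 75 CPM (-0.78, SE 0.13, adjusted p = 2.0e-04), with groups that overlapped by a narrow margin. *Klk8* rose by 1.57 (SE 0.26) and *Serpinb8* by 1.47 (SE 0.22). Among 30 complement and lysozyme genes 2 rose, both lysozymes, and 6 fell (26.7%), led by *C4b* at 54.1, 122 and 221 CPM in wildtype and 12.7, 17.3 and 21 CPM in cKO (-2.94, SE 0.31, adjusted p = 4.5e-07), with *C1ra* at -1.27 (SE 0.21). Lysosomal cathepsin and hydrolase genes gave 2 higher and 4 lower of 66 (9.09%), among them *Pld4*, an endolysosomal exonuclease, at 437, 480.2 and 615 CPM in wildtype and 104, 121 and 143 CPM in cKO (-2.04, SE 0.13, adjusted p = 1.4e-10).

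Enzymes of lipids gave 16 higher and 14 lower of 158 (19%, and 10 and 13 without the doubted libraries). *Alox5ap*, which presents arachidonate to the lipoxygenase in leukotriene synthesis, fell from 89.4, 103 and 192 CPM to 4.72, 10.5 and 18.6 CPM (-3.43, SE 0.26, adjusted p = 7.6e-10). The lipoxygenase *Alox5* (9.24 to 19.6 CPM to 3.35 to 4.47 CPM, -1.83, SE 0.21) and the leukotriene C4 synthase *Ltc4s* (8.22 to 10.3 CPM to 2.29 to 5.20 CPM, -1.30, SE 0.24) fell, as did *Ptgs1*, a cyclooxygenase of prostaglandin synthesis (220.0 to 391 CPM to 88.2 to 191 CPM, -1.40, SE 0.17). These last 3 were named after their values were seen. All 4 were without overlap, and each passed without the doubted libraries and with the covariate (adjusted p = 4.2e-06, 8.7e-04, 0.0083 and 5.7e-04). Fatty acid and sphingolipid genes were among the higher members: *Acaca*, the first committed enzyme of fatty acid synthesis, rose from 12.4, 17.2 and 19.6 CPM to 33.0, 37.9 and 45.7 CPM (1.19, SE 0.14, adjusted p = 1.3e-06), and the sphingomyelin synthase *Sgms1* by 1.10 (SE 0.22). *Lpl*, the lipoprotein lipase, was at 52.6, 284 and 360.3 CPM in wildtype and 581, 627 and 726 CPM in cKO (1.34, SE 0.29, adjusted p = 0.0031). *Fads1*, a fatty acid desaturase, fell from 133 to 196 CPM to 86.0 to 103 CPM (-0.78, SE 0.09), and the lipase *Liph* from 37.8 to 62.1 CPM to 13.1 to 18.4 CPM (-1.70, SE 0.13).

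Of 385 small GTPases and their regulators 26 rose and 27 fell (13.8%, and 14 and 20 without the doubted libraries), of 359 kinases 13 and 16 (8.08%), of 174 phosphatases 7 and 8 (8.62%), of 361 ubiquitin ligases and related genes 10 and 25 (9.7%), and of 224 cytoskeleton and motor genes 17 and 15 (14.3%, and 11 and 5 without the doubted libraries). *Arhgef5*, an exchange factor of small GTPases, rose from 2.10, 3.45 and 3.69 CPM to 10.4, 10.8 and 12.1 CPM (1.75, SE 0.17, adjusted p = 6.6e-08), and *Rab38*, a GTPase of lysosome-related organelles, from 0.599 to 1.44 CPM to 3.73 to 5.58 CPM (2.19, SE 0.32). *Rab27a*, a GTPase of granule secretion, fell from 68.8, 91.1 and 118 CPM to 33.5, 38.8 and 45.9 CPM (-1.23, SE 0.15, adjusted p = 2.0e-06), and *Rgl1* from 47.8 to 64.6 CPM to 22.5 to 34.8 CPM (-1.08, SE 0.12). Some lower members of the GTPase list, of the *Gbp* and *Irgm* families, are interferon-induced GTPases, and *Rapsn* (-1.66, SE 0.21), matched by its name, is a scaffold of the neuromuscular synapse and no GTPase. Among kinases *Ksr2* (1.88, SE 0.23), *Fyn* (0.86, SE 0.11) and *Ptk2* (1.09, SE 0.17) rose, and *Ripk4* fell from 2.37, 10.9 and 13.3 CPM to 0.348, 1.48 and 2.27 CPM (-2.75, SE 0.39, adjusted p = 2.5e-05). Of the phosphatases *Ptprs* rose by 0.95 (SE 0.14) and *Ptpn7* fell by 2.29 (SE 0.30). *Ube2l6* (-1.47, SE 0.21) and *Uba7* (-1.20, SE 0.21), the conjugating and activating enzymes of ISG15, fell without overlap, while *Smurf1*, a ligase that acts on TGF-beta receptors and SMAD proteins, rose by 0.75 (SE 0.15). The actin regulator *Coro2a* fell from 22.2, 28.4 and 40.2 CPM to 2.82, 5.52 and 9.87 CPM (-2.35, SE 0.22, adjusted p = 5.2e-08), and *Stac2* rose from 7.28 to 15.8 CPM to 42.6 to 81.4 CPM (2.32, SE 0.21).

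Interferon-stimulated genes were counted with a separate list. Of 78 tested, 54 fell and 0 rose by edgeR (69.2%, median -1.07). At an unadjusted p under 0.05 the counts were 66 and 0, and by DESeq2 60 fell and 0 rose. The count was 37 of 79 without the doubted libraries (median -0.89), 43 without wildtype replicate 5, 4 within replicates 1 to 3, 47 within replicates 4 to 6, 36 when title number was a random effect and 1 with the infiltrating-cell covariate. That covariate is made from markers some of which are called themselves, and its member *Ms4a4c* is also in the interferon list. What the loss of calls with it reflects was not tested. *Oas3*, a sensor of double-stranded RNA named after its values were seen, was at 6.51, 13.8 and 33.7 CPM in wildtype and 0.755, 1.68 and 2.65 CPM in cKO (-3.24, SE 0.37, adjusted p = 1.2e-06), without overlap. Cell cycle genes gave 17 lower of 69 (24.6%, median -1.45), which depended on the libraries used: 4 fell without wildtype replicate 5 and 0 by edgeR without the doubted libraries (median -0.24, and 4 at an unadjusted p under 0.05). By DESeq2 with all libraries 28 fell.

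The promoters of changed genes were searched for 8 short motifs on both strands. Promoter windows of 300 bases, from 250 before to 50 after the start, were taken from RefSeq (GRCm38.p6) and matched 10880 of the tested genes by symbol, among them 363 higher and 514 lower genes. The core of the interferon response element, GAAANNGAA, stood in 17.3% of windows of lower genes, 6.89% of windows of higher genes and 7.22% of all windows. It stood in 59% of 61 windows of the interferon list, and still in 13.7% of 473 windows of lower genes outside that list. The core bound by PU.1 together with IRF factors, GGAANNGAA, which overlaps the first motif where the letters allow, stood in 10.1% of windows of lower, 6.06% of higher and 7.31% of all genes. The AP-1 element TGANTCA stood in 8.75% of windows of lower and 7.99% of higher genes, against 4.97% of all. The sterol response element TCACNCCAC stood in 1.65% of windows of higher genes and 1.09% of all, and the E2F element TTTCCCGC in 1.75% of windows of lower genes and 2.1% of all. For the kappaB core GGGNNNTCC the shares were 25.6% (higher), 24.5% (lower) and 23% (all). The cyclic AMP response element TGACGTCA stood in 2.75%, 0.973% and 3.14%, and the lysosomal element TCACGTGA in 1.1%, 0.973% and 1.84%. These are shares of letter matches, not of bound sites.

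To show what such a match looks like, 150 bases are given for 4 of the lower genes with the smallest p whose window holds GAAANNGAA or its reverse complement, matches in capitals, on the strand of the gene. Of these 4 genes only *Oas3* is in the interferon list. They are a choice and not the 4 with the smallest p, because *Milr1*, which also holds a match, had a smaller p than *Rnase6*. In *Oas3* a pair of overlapping matches shares 1 run of capitals.
Oas3, chr5:120777653-120777802, minus strand: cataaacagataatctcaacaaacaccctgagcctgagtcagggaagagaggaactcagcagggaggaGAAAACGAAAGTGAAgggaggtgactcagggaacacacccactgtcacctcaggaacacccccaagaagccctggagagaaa
Cd300lf, chr11:115134058-115134207, minus strand: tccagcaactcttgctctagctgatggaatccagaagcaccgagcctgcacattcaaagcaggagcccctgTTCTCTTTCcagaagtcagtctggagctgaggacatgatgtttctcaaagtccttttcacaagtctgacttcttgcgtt
Aoah, chr13:20794013-20794162, plus strand: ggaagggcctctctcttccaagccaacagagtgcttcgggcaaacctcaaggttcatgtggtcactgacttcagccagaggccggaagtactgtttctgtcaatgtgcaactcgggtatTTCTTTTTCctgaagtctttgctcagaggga
Rnase6, chr14:51128947-51129096, plus strand: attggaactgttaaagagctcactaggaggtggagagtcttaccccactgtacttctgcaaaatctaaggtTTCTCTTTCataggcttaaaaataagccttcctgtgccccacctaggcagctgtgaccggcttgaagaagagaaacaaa
Of these genes, the last pair named after their values were seen, *Aoah*, a hydrolase that inactivates bacterial lipopolysaccharide, fell from 10.8, 21.2 and 31.9 CPM to 1.71, 2.47 and 4.97 CPM (-2.82, SE 0.30, adjusted p = 3.9e-07), and *Rnase6*, an antimicrobial ribonuclease, from 12.1, 17.5 and 27.2 CPM to 3.68, 5.85 and 8.07 CPM (-1.58, SE 0.20, adjusted p = 5.0e-06). The groups did not overlap for either, and both genes passed with the infiltrating-cell covariate (adjusted p = 7.6e-04 and 1.0e-04).

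Leaving out each of the 12 female libraries in turn left 980 to 1619 genes called. Of the 1279 genes, 812 (63.5%) were called in all 12 of these fits, 369 higher and 443 lower, 190 in 7 to 11 of them and 277 in 6 or fewer. Every one of the 1279 kept its direction in all 12, but each fit shares all but 1 library with the fit that chose the genes, so this is no separate support. The 812 had a median size of change of 1.13 on the log2 scale, against 0.73 for the others. Calls lost ranged from 79 without wildtype replicate 2 to 327 without wildtype replicate 5, with 317 lost without cKO replicate 3. Without wildtype replicate 2 another 419 genes were called. Wildtype replicate 5 was the library whose removal moved the log2 change most for 563 of the called genes (44%), and the next was wildtype replicate 2 with 146 (11.4%). With the 4 doubted libraries removed 869 of 16938 genes (5.13%) were called, 750 of them shared with the full fit.

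**Figure D4:**
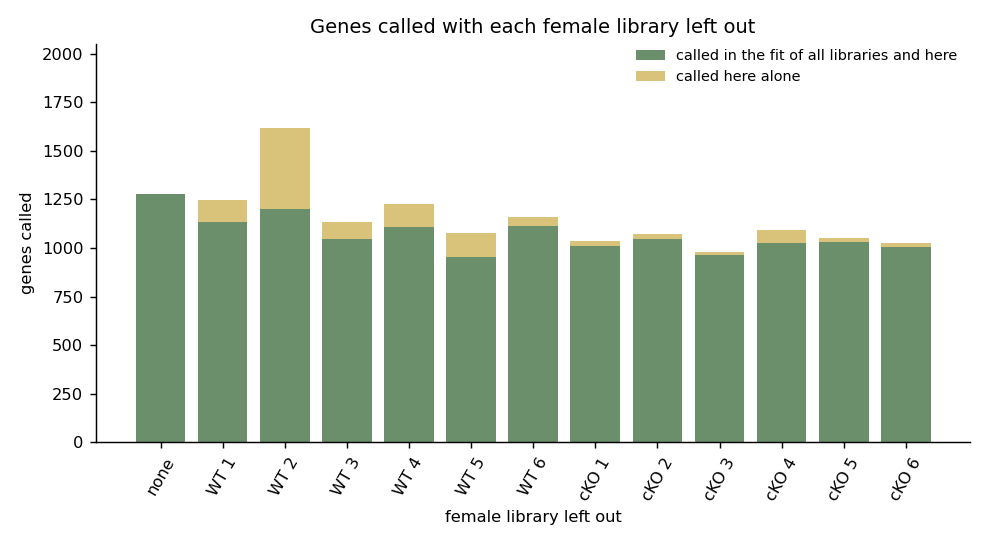
Bars give the number of genes called with no library or 1 female library left out, split into genes also called with all libraries and genes called there alone. Removal of wildtype replicate 2 gives 1619 calls and removal of cKO replicate 3 gives 980.

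All 8 called complement and lysozyme genes, 47 of 56 called immune receptor genes and 17 of 19 called chemokine and cytokine genes were called in all 12 fits, as were 3 of 6 lysosomal genes, 15 of 29 kinases and 4 of 8 chromatin genes, beside 63.5% of all called genes. A stricter set was formed after the values were seen. It held the 812 genes that were also called without the doubted libraries (639), then also in replicates 1 to 3 alone and in replicates 4 to 6 alone (265), and then under the random effect of title number and under the infiltrating-cell covariate (172, with 65 higher and 107 lower). Among the genes named above, this set includes *Il20rb*, *Tgfb2*, *Lyz1*, *Lyz2*, *Madcam1*, *Cspg4*, *Postn*, *Mmp2*, *Hbegf*, *Fst*, *Xirp1*, *F2r*, *Adora2a*, *Slamf7*, *Acaca*, *Sox12* and *Zfp827* among higher genes and *Tspan7*, *Pld4*, *Gpr35*, *Itgal*, *Alox5ap*, *Alox5*, *Ltc4s*, *Ptgs1*, *P2rx1*, *Il12rb1*, *Siglece*, *Cd300lf*, *Ebi3*, *Tgm2*, *Gpx3*, *C4b* and *Oas3* among lower genes. *Grap* and *Themis2*, adaptors of lymphocyte and macrophage signalling, are also in it, at 115 to 178 CPM in wildtype and 28.2 to 47.0 in cKO (-1.88, SE 0.13) and at 126 to 211 and 43.0 to 51.3 CPM (-1.66, SE 0.12).

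The covariate for infiltrating cell markers left the fewest calls of the alternatives tried, 358 genes, 279 of them shared with the full fit, and 1186 of the 1279 genes kept their direction. Besides those for which it is given above, these named genes missed the threshold with the covariate: *Arid1b*, *Axl*, *Bhlhe40*, *C1ra*, *Cask*, *Ccl22*, *Ccl3*, *Cd1d1*, *Cfp*, *Etv4*, *Fcer1g*, *Flt1*, *Gas6*, *Gpnmb*, *Igfbp6*, *Il18*, *Il2rg*, *Itgax*, *Jun*, *Kdm4a*, *Kdm6a*, *Kdm7a*, *Klk8*, *Lpl*, *Ly6c2*, *Ly6e*, *Maoa*, *Maob*, *Mfge8*, *Mmp14*, *Mxd1*, *Nos2*, *Phf11a*, *Phf11b*, *Phf11d*, *Ptgir*, *Ptprs*, *Sgms1*, *Slc2a1*, *Smurf1*, *Sox13*, *Srebf2*, *Stap1*, *Trpc4*, *Uba7*, *Ube2l6* and *Zfp618*. Their adjusted p lay between 0.066 (*Sox13*) and 0.99 (*Nos2*). The covariate is a mean over genes some of which are called themselves. Within replicates 1 to 3 alone 458 genes were called and within replicates 4 to 6 alone 658. A random effect for title number gave 803. Of all tested genes 737 (4.46%) had no overlap between the 6 wildtype and 6 cKO libraries, 675 of them called.

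In males 31 genes (0.187%) were called for the same contrast, 29 of them among the 1279 female calls. Of the female calls 1145 (89.5%) had the same sign in males, against 60.5% of all tested genes. The male change was smaller in size for 1276 of the 1279, which were chosen on their female values, and the male medians were 0.23 for genes higher and -0.27 for genes lower in females. The difference between the sexes passed its own test for 68 genes (0.411%), all called in females and all larger in size there, with 11 of opposite sign. The smallest p belonged to *Pld4* (log2 change -2.04 in females and -0.40 in males, adjusted p of the difference 3.2e-05), *Gpr35* (-3.76 and -0.72, 4.5e-05), *Alox5ap* (-3.43 and -0.74, 1.1e-04), *Grap* (-1.88 and -0.52, 1.9e-04) and *Themis2* (-1.66 and -0.48, 3.3e-04). Among receptors and secreted products it also passed for *Il20rb* (3.93 and 1.64, adjusted p = 0.0015), *Tgfb2* (3.45 and 0.74, 7.5e-04), *Siglece* (-1.98 and -0.26, 7.9e-04) and *Mmp2* (1.10 and -0.01, 0.0034). *Kdm6a* itself fell in males by 1.36 (adjusted p = 0.016), and the difference between the sexes in its change did not pass (adjusted p = 0.87).

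**Figure D5:**
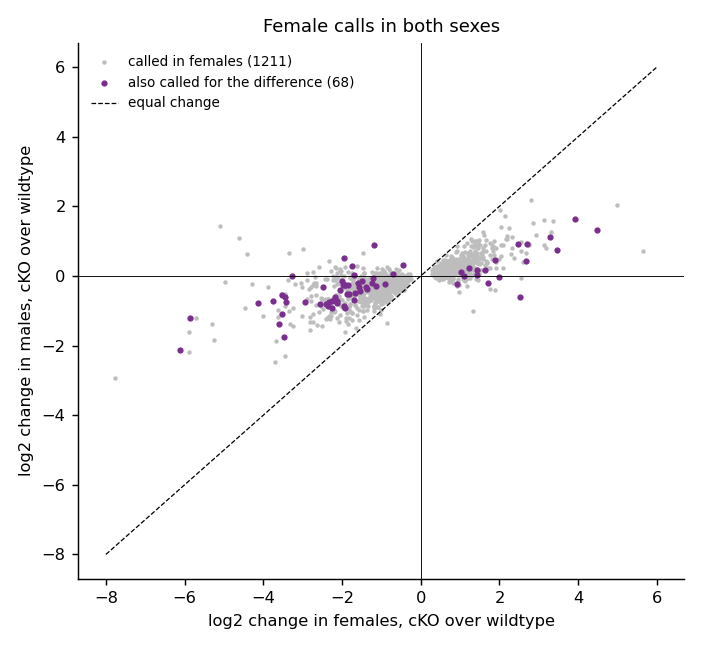
Each point is 1 of the 1279 genes called in females, with its log2 change (cKO over wildtype) in females on the horizontal and in males on the vertical axis, and the dashed line marks equal change. Most points lie nearer to 0 in males than in females, and the 68 genes whose change differed between the sexes are in purple.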

How the data were processed

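RNA-seq counts of female wildtype and *Kdm6a* cKO libraries (6 each) were compared. The authors deposited 1 table of raw counts per gene for all 24 libraries. Per the labels' protocols, RNA came from a Direct-zol isolation and went into KAPA Stranded libraries with mRNA enrichment. The submitters' processing notes name build mm10 and the tools Trimmomatic, FastQC and bcl2fastq 2.17. The sources used here name no aligner, counter or annotation, so reads of overlapping or near-identical genes cannot be assigned with certainty. Symbols and coordinates came from GENCODE M21 for 96.6% of 39017 identifiers, and the rest held 0.574% of counts. Even values made up 71.8% of counts of 1 to 10 but 51.7% of those of 1000 to 10000, so both mates of a pair may have been counted.

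Genes kept by filterByExpr were tested by quasi-likelihood in edgeR 4.0.16 under R 4.3.3 with TMM factors in 1 fit of all 24 libraries with 1 mean per group, with Benjamini-Hochberg adjustment over all genes. The procedure was tested on simulated counts. Alternatives were DESeq2 1.42.0, limma 3.58.1 with quality weights or title number as a random effect, other filters and scalings, a covariate for infiltrating cell markers, sets of replicates, and each library left out.

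The comparison, the gene lists and the doubted libraries were chosen with earlier results of these data known. Genes were named by a rule: *Kdm6a*, up to 4 members in each direction with the smallest p per list, the 5 largest differences of mean CPM in each direction, called genes within 10 Mb of *Kdm6a*, those that move most with 1 library left out or differ most between the sexes, and genes of the windows with the highest share of calls. Others are said to be named after their values were seen. Not each gene of the rule is reported. No library was paired with another.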

Additional observations from a re-analysis of the deposited data

Results flagged for a closer look

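In a group of 6 libraries, a library was marked when its gap to the nearest other, divided by the range of the group, passed Dixon's critical value, which chance does in about 1 of 20 groups. The CPM of the library that stood apart is given for each gene reported above, and causes were not tested. The level in female cKO replicate 1 was above the other 5 for *Siglece* (11.1 CPM, others 5.07 to 7.08) and *Tmem119* (291 CPM, others 189.7 to 206). Female cKO replicate 1 was below its group for *P2ry2* (3.16 CPM, others 4.6 to 5.15). The level in female cKO replicate 2 was above the other 5 for *Ly6c2* (0.131 CPM, others 0 to 0). Female cKO replicate 3 was above its group for *Tgfb2* (14 CPM, others 9.56 to 11.2). The level in female cKO replicate 4 was above the other 5 for *Cfp* (1.62 CPM, others 0.197 to 0.639), *Igkc* (2.05 CPM, others 0.0580 to 0.788) and *Il12rb1* (0.552 CPM, others 0.0657 to 0.240). Female cKO replicate 5 was above its group for *Ighg1* (0.445 CPM, others 0 to 0). The level in female cKO replicate 6 was above the other 5 for *P2rx1* (0.177 CPM, others 0 to 0.0558). In female wildtype replicate 1 the level was above the other 5 libraries for *Havcr1* (0.0731 CPM, others 0 to 0), *Ighg1* (91.3 CPM, others 0 to 4.92) and *Igkc* (127 CPM, others 0.217 to 13). In female wildtype replicate 2 the level was above the other 5 libraries for *Cd1d1* (4.27 CPM, others 1.28 to 2.28), *Klk8* (22.3 CPM, others 7.78 to 10.9), *Madcam1* (2.34 CPM, others 0.571 to 0.973), *Ptgir* (2.66 CPM, others 0.435 to 1.14) and *Xirp1* (3.37 CPM, others 0.0535 to 0.599). In female wildtype replicate 3 the level was above the other 5 libraries for *Adam19* (5.35 CPM, others 1.95 to 3.09). In female wildtype replicate 5 the level was above the other 5 libraries for *Alox5ap* (192 CPM, others 89.4 to 118), *Ccl6* (547 CPM, others 223 to 302), *Cd300lf* (179 CPM, others 49.8 to 82.1), *Cxcl9* (366 CPM, others 71.9 to 167), *E2f2* (65.8 CPM, others 18.2 to 32.0), *Etv4* (20.4 CPM, others 4.91 to 7.02), *Fcgr4* (951 CPM, others 127 to 232), *Gpr35* (93.4 CPM, others 39.8 to 54.4), *Grap* (178 CPM, others 115 to 125), *Il12rb1* (53.1 CPM, others 3.85 to 7.93), *Il18* (22.0 CPM, others 12.5 to 14.3), *Itgal* (105 CPM, others 35.7 to 52.4), *Ly6c2* (1.71 CPM, others 0.0527 to 0.598), *Ly6e* (4134 CPM, others 1811 to 2635), *Nos2* (14.3 CPM, others 0.110 to 0.843), *P2rx1* (6.74 CPM, others 0.790 to 2.69), *Phf11a* (6.79 CPM, others 1.37 to 2.92), *Phf11b* (40.6 CPM, others 15.9 to 19.6), *Sox12* (5.88 CPM, others 3.95 to 4.56), *Stat2* (155 CPM, others 55.4 to 87.7), *Tgm2* (1487 CPM, others 226 to 444) and *Themis2* (211 CPM, others 126 to 157). In female wildtype replicate 5 the level was below the other 5 libraries for *Adgre1* (89.8 CPM, others 148 to 182). In female wildtype replicate 6 the level was below the other 5 libraries for *Arhgef5* (2.10 CPM, others 3.36 to 3.69).

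The change with the deletion differed between females and males, by edgeR's test of the difference with adjustment over all genes, for the following reported genes. The values are the female minus the male log2 change. It was positive for *Adam19* (1.46), *Adora2a* (2.01), *Cspg4* (1.56), *Il20rb* (2.29), *Ksr2* (1.43), *Lyz1* (2.14), *Madcam1* (3.16), *Mmp2* (1.11) and *Tgfb2* (2.70). It was negative for *Adora3* (-0.67), *Alox5* (-1.31), *Alox5ap* (-2.69), *C4b* (-2.20), *Cd300lf* (-2.16), *Coro2a* (-1.49), *Ebi3* (-1.54), *Fcgr4* (-3.28), *Gpr35* (-3.03), *Grap* (-1.36), *Il12rb1* (-4.66), *Itgal* (-2.22), *Liph* (-1.02), *P2rx1* (-3.98), *Pld4* (-1.65), *Ptgs1* (-1.09), *Rab27a* (-1.03), *Rnase6* (-1.26), *Siglece* (-1.72), *Slc13a3* (-1.37), *Tgm2* (-2.96), *Themis2* (-1.18), *Tnfsf13b* (-0.99), *Treml2* (-1.41) and *Tspan7* (-0.99). All of these genes were called in females and had the larger change there.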

How the results depend on the processing

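The 1279 calls in females (549 higher, 730 lower) and the 68 differences between the sexes came to 358 (130 and 228) and 42 with the covariate for infiltrating cell markers, 458 (184 and 274) and 15 within replicates 1 to 3, and 658 (262 and 396) and 4 within replicates 4 to 6, where fewer libraries entered. With title number as a random effect there were 803 calls, 374 of them lower, and 104 differences between the sexes. Without the doubted libraries 335 genes were higher. DESeq2 gave 142 differences between the sexes, and a term that separates the first 3 replicates from the last gave 111. With 1 female library left out there were 980 to 1619 calls, 425 to 662 higher and 555 to 957 lower, and 46 to 87 differences between the sexes. A fit of the 12 female libraries alone gave 954 calls, 419 higher and 535 lower, 927 of them shared with the full fit. Counts of calls under the other filters, scalings and tools were within 1.5 times of those of the full fit. With the covariate, the log2 change turned from lower to higher for *Cxcl10* (0.05, adjusted p = 0.99), *H2afx* (0.54), *Spon1* (0.02) and *Tgfbi* (0.18), and the cause was not tested. No paired analysis was possible because replicate numbers were given in accession order and pair no libraries.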
